A study of Castanea mollissima with 18 samples.

Results

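The genes described here were present in 15 of 18 libraries of Chinese chestnut (Castanea mollissima) tissue cultures and stood lower in the libraries labelled callus 1, 2 and 6. They numbered 213 of 20365 tested genes (1.05%), out of 33991 gene IDs in all. The members were chosen by their measured levels in these libraries: on the log2(FPKM + 1) scale, the highest of callus 1, 2 and 6 lay at least 1.5 below the lowest of the other 15 libraries, which are callus 3, 4 and 5 and all 12 somatic embryo libraries. FPKM is the number of sequenced fragments scaled to gene length and to the library total. Genes in which callus 3, 4 and 5 all lay at least 1 above every other library were to be left out, and there were 0 of these. A tested gene reached 1 FPKM in 6 or more libraries. Every gene with the required gap passed that filter, because its lowest level in the 15 libraries was by construction at least 1.83 FPKM. The last 2 genes inside the limit had at most 0.32 and 3.49 FPKM in callus 1, 2 and 6, against at least 2.75 and 11.7 FPKM in the other 15 libraries. The first 2 outside it had at most 2.59 and 1.38 FPKM, against at least 9.14 and 5.72 FPKM.

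The study measured gene expression by RNA sequencing in 6 libraries of callus and 12 libraries of somatic embryos. Each was labelled with its tissue and a number. The sample titles add short codes that all libraries share, such as ys, and their meaning is not given. No line, stage, age, medium or treatment is spelled out for either tissue. The labels do not say whether libraries came from separate cultures. The p-values below thus reflect nothing but the spread among the libraries, part or all of which may be technical. Callus is a mass of dividing plant cells without organs that forms on wounded or hormone-treated tissue. Somatic embryos grow in culture from body cells and pass through shapes like those of a seed embryo. Embryogenic callus, from which they can arise, is known to differ in gene expression from callus that forms no embryos. The labels do not say whether any callus here was embryogenic. The gene IDs are not paired with names in the file, so no role can be given for any member, and the tissue labels could not be checked against marker genes.

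The 18 libraries lay in sets of 3 that resembled each other, as seen in earlier results of these data and not in the labels: callus 1, 2 and 6, callus 3, 4 and 5, and somatic embryo 5 to 7, 8 to 10, 2, 3 and 11, and 1, 4 and 12. Callus 1, 2 and 6 stood apart from the other callus libraries, and this split defines the members. Between 18555 and 19911 gene IDs reached 1 FPKM in a library. Somatic embryo 3 and 4 were the least close to their sets: over the tested genes, their highest Spearman correlation with any library was 0.95 and 0.93, against 0.979 or more for every other library. Read depth is unknown, since the values are FPKM without counts. Levels over the sets of 3 are given as a description, without a test.

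The 213 members were low together in callus 1, 2 and 6. Their median level was 0.38, 0.31 and 0.39 FPKM in callus 1, 2 and 6, against 13.7, 13.1 and 13.7 FPKM in callus 3, 4 and 5. In somatic embryos it ran from 13.8 FPKM (library 11) to 21.0 FPKM (library 12). The median of all tested genes was alike in the same libraries, at 15.1 to 15.3 FPKM in callus 1, 2 and 6, 15.0 to 15.1 FPKM in callus 3, 4 and 5, and 11.9 to 15.2 FPKM in somatic embryos. At least 1 FPKM was reached by 74, 68 and 70 members in callus 1, 2 and 6, and by all 213 in each of the other 15 libraries. The members held 0.0805% to 0.0879% of the summed FPKM in callus 1, 2 and 6, 0.777% to 0.813% in callus 3, 4 and 5 and 1.12% to 1.40% in somatic embryos. The differences between callus 1, 2 and 6 and the other 15 libraries follow from how the genes were chosen and are not tested. The choice does not directly set the difference between callus 3, 4 and 5 and somatic embryos, which is taken up below.

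**Figure D1:**
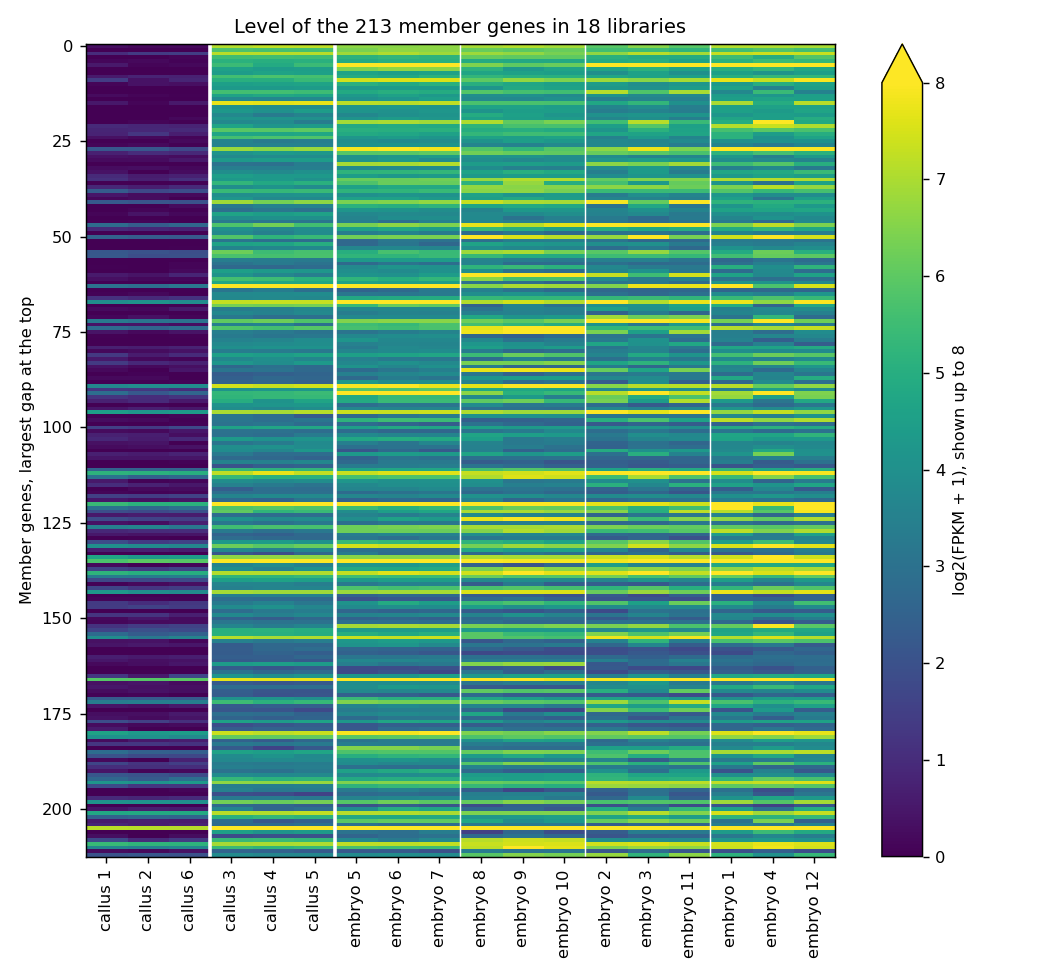
Level of each of the 213 member genes (rows, largest gap at the top) in the 18 libraries (columns), as log2(FPKM + 1) in colour, shown up to 8. White lines part the sets of 3 libraries. Callus 1, 2 and 6 on the left are dark in most rows, while the other 15 columns are lighter in each row. The rows with some colour in callus 1, 2 and 6 are the members with a residual level there.

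**Figure D2:**
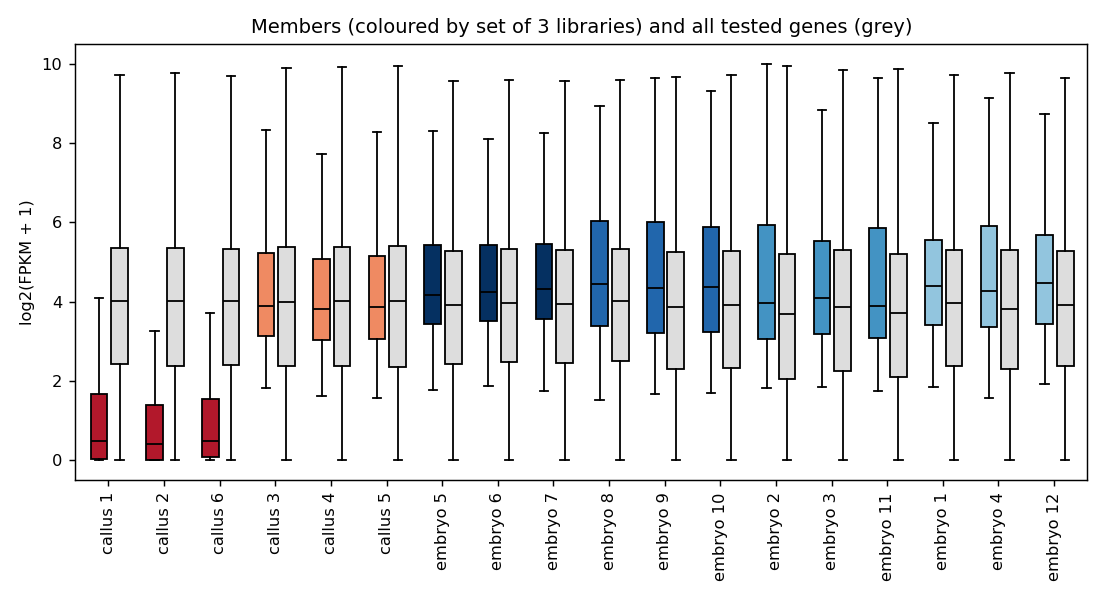
Levels of the 213 members (coloured boxes, 1 colour per set of 3 libraries) and of all 20365 tested genes (grey boxes) in each library, as log2(FPKM + 1). Boxes span the quartiles with the median as a line, and whiskers reach the last value within 1.5 box lengths. The grey boxes are alike across libraries, while the coloured boxes lie near 0 in callus 1, 2 and 6 alone.

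Over all members, callus 1, 2 and 6 minus the other 15 libraries was -3.34 in the median on the log2 scale, from -8.30 to -2.02. Over all tested genes the median was 0.07. Against callus 3, 4 and 5 alone the median of the members was -2.98, and against somatic embryos alone it was -3.40. The gap itself, from the highest of callus 1, 2 and 6 to the lowest of the 15, had a median of 2.11. It was at least 2 in 122 members, at least 3 in 31, at least 4 in 7 and at least 5 in 2.

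The members with the widest gaps were Cm02G00349.gene and Cm05G01810.gene, for which the file gives no function. Cm02G00349.gene had 0.23, 0.13 and 0.15 FPKM in callus 1, 2 and 6, against 135, 149 and 148 FPKM in callus 3, 4 and 5. In somatic embryos it ran from 59.8 to 135 FPKM with a median of 108 FPKM. Callus 1, 2 and 6 were thus near the floor, while callus 3, 4 and 5 stood just above the top of the embryo range. Cm05G01810.gene was listed at 0 in all of callus 1, 2 and 6, and had 53.3, 49.9 and 48.8 FPKM in callus 3, 4 and 5. In somatic embryos it ran from 36.7 to 99.2 FPKM with a median of 59.2 FPKM. Callus 3, 4 and 5 lay inside the embryo range for this gene. The next-numbered ID was also a member and was likewise listed at 0 in callus 1, 2 and 6.

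Low did not always mean absent in callus 1, 2 and 6, so the set holds genes near the floor and genes still expressed there. In 33 members (15.5%) all 3 libraries were listed at 0, and in a further 22 the highest of the 3 was at most 0.1 FPKM. In 81 members (38.0%) it lay above 0.1 and up to 1 FPKM. The remaining 77 members (36.2%) exceeded 1 FPKM in at least 1 of these 3 libraries, and 22 of them exceeded 10 FPKM. The members with a residual level were the more abundant ones elsewhere: the typical level in the other 15 libraries was 9.28 FPKM for the 55 members at or under 0.1 FPKM, and 138 FPKM for the 22 members above 10 FPKM. Such an order is partly set by the rule, since a gene with 10 FPKM in callus 1, 2 and 6 must reach a high level elsewhere to be a member. In those 22 members the median of the 15 libraries was 4.14 to 13.3 times the mean of callus 1, 2 and 6.

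The member with the most residual expression had 144, 139 and 139 FPKM in callus 1, 2 and 6, against 607, 526 and 569 FPKM in callus 3, 4 and 5. In somatic embryos it ran from 415 FPKM in library 7 to 1248 FPKM in library 4. Callus 1, 2 and 6 thus held an abundant transcript at a lowered level, in contrast to the members listed at 0.

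**Figure D3:**
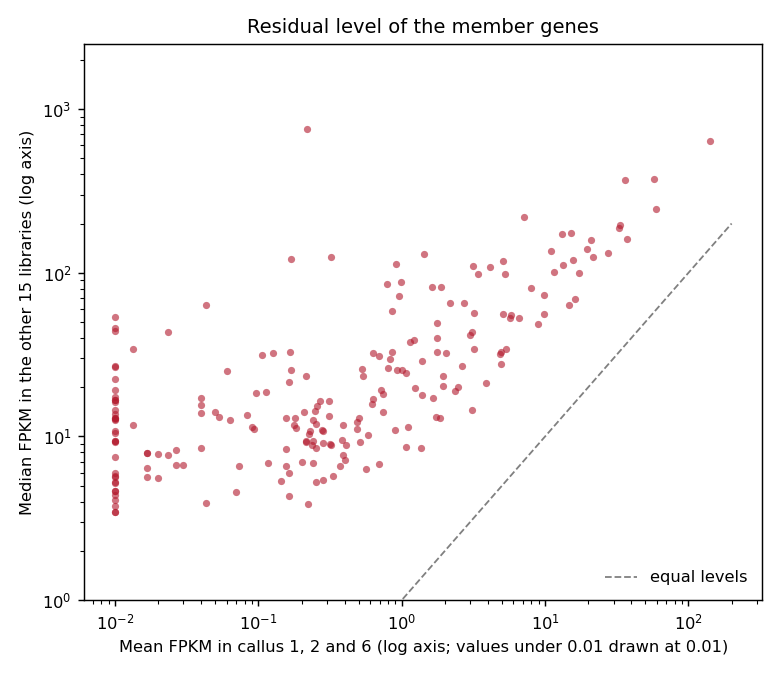
Each point is 1 of the 213 members: mean FPKM in callus 1, 2 and 6 (horizontal, log axis, values under 0.01 drawn at 0.01) against median FPKM in the other 15 libraries (vertical, log axis). The dashed line marks equal levels. The column of 35 points on the left holds the 33 members listed at 0 in all 3 libraries and those with a mean under 0.01, and the points at the upper right are the 22 members above 10 FPKM in callus 1, 2 and 6, which still lie above the line.

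Among the other 15 libraries the typical member was at a middle level in every set. The median of all tested genes was 15.0 FPKM in callus 3, 4 and 5 and 12.8 to 14.5 FPKM in the embryo sets. The median member had a mean of 13.5 FPKM over callus 3, 4 and 5. Over the embryo sets it had 18.2 FPKM in libraries 5, 6 and 7, 19.9 FPKM in 8, 9 and 10, 15.3 FPKM in 2, 3 and 11, and 19.8 FPKM in 1, 4 and 12. The 14349 tested genes with the same floor, a lowest level of at least 1.5 (log2) in the 15 libraries, had higher medians. These were 26.2 FPKM in callus 3, 4 and 5 and 22.8 to 24.7 FPKM in the embryo sets. The typical member thus lay below the typical gene with that floor in each of these sets. That floor is the least a member can have, and members with a residual level in callus 1, 2 and 6 had to lie higher. The 22 members above 10 FPKM there had at least 34.1 FPKM in the other 15 libraries. The genes with the same floor are thus not matched to the members in level, here or below.

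Within callus 1, 2 and 6 the members were close from library to library on the log2(FPKM + 1) scale. The range over the 3 libraries was 0.18 in the median on the log2 scale, beside 0.20 in callus 3, 4 and 5 and 0.21 in somatic embryo 5, 6 and 7. It was 0.36 in somatic embryo 8, 9 and 10 and 0.55 in both remaining sets. These sets are not like for like. In callus 1, 2 and 6, 136 members (63.8%) lay at or under 1 FPKM, where this scale shrinks differences. In all 6 sets the median range of the members was somewhat wider than that of all tested genes, at 0.14 for callus 1, 2 and 6 and 0.16 for callus 3, 4 and 5.

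By set means, somatic embryo 1, 4 and 12 were the highest of the 5 sets in 67 members (31.5%), somatic embryo 8, 9 and 10 in 47 and somatic embryo 5, 6 and 7 in 40. Callus 3, 4 and 5 were the highest in 34 (16.0%) and somatic embryo 2, 3 and 11 in 25. Among the 14349 genes with the same floor, callus 3, 4 and 5 were the highest set in 30.1% and somatic embryo 1, 4 and 12 in 19.6%. At the other end, callus 3, 4 and 5 were the lowest of the 5 sets in 76 members (35.7%), beside 13.4% of the genes with the same floor. Somatic embryo 2, 3 and 11 were the lowest in 60 (28.2%), beside 34.7%. Callus 4 was the lowest single library of the 15 in 32 members (15.0%), beside 3.81% of the genes with the same floor, and somatic embryo 2 also in 32 (15.0%), beside 13.5%. Somatic embryo 4 was the lowest in 20 members (9.39%), beside 18.9%, and the highest in 34 (16.0%), beside 13.3%. Over the members, somatic embryo 4 was nearest to somatic embryo 3 (Spearman correlation 0.89), which lies in another set. Somatic embryo 1 and 12 correlated at 0.98. A mean over 1, 4 and 12 thus covers unlike libraries.

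In some members 1 of the 5 remaining sets stood apart. In 10 members (4.69%, beside 2.41% of the genes with the same floor) all 3 libraries of a set lay at least 1 (log2) above the other 12: 4 in somatic embryo 8, 9 and 10, 3 in 5, 6 and 7, 2 in 2, 3 and 11, and 1 in 1, 4 and 12. In 10 members (4.69%, beside 1.59%) a set lay at least 1 below the other 12, and in 9 of these it was callus 3, 4 and 5. These 9 genes (4.23% of the members, beside 0.739% of genes with the same floor) thus had callus 3, 4 and 5 apart from both callus 1, 2 and 6 and the embryos; that callus 1, 2 and 6 lay lowest is fixed by the choice of members.

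The members were no more even over the 15 libraries than other genes. Their SD on the log2 scale was 0.53 in the median (quartiles 0.37 and 0.89), beside 0.48 for all tested genes and 0.42 for the genes with the same floor. In 24 members (11.3%) the 15 libraries lay within 2-fold of each other on the log2(FPKM + 1) scale, a smaller share than the 22.8% of genes with the same floor. In 101 members the range was 1 to 2, in 44 it was 2 to 3, and in 44 it was 3 or more. The most even member had 1.89, 1.66 and 1.97 FPKM in callus 1, 2 and 6, against 11.3, 12.9 and 12.6 FPKM in callus 3, 4 and 5 and 10.9 to 17.3 FPKM in somatic embryos. The other extreme was Cm11G01272.gene, whose levels in the 15 libraries ranged over 6.30 on the log2 scale and are given with the next comparison. The median SD over the 15 libraries was 0.44 for the 55 members at or under 0.1 FPKM in callus 1, 2 and 6, 0.53 for the 81 above 0.1 and up to 1 FPKM, 0.74 for the 43 above 1 and up to 5 FPKM, 0.85 for the 12 above 5 and up to 10 FPKM and 0.52 for the 22 above 10 FPKM, so spread did not follow the residual level steadily.

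Callus 3, 4 and 5 were next set against the 12 somatic embryo libraries, with callus 1, 2 and 6 left out, to compare the members' levels between the callus in which they were high and the embryos. Callus 3, 4 and 5 overlapped the embryo range in 160 of 213 members (75.1%), a share near that of all tested genes (75.4%) and of those with the same floor (77.7%). They lay below all 12 embryo libraries in 38 members (17.8%), where 8.49% of all tested genes and 5.85% of those with the same floor did so. They lay above all 12 in 15 members (7.04%), where 16.1% and 16.4% did so. The 15 libraries are the same ones that the choice of members set against callus 1, 2 and 6. That choice used the lowest of them, and its clause on callus 3, 4 and 5 above all others left out 0 genes. The members were also picked for low levels in libraries with the same tissue label, callus. The counts here and below are thus not independent of the choice, and how far it shapes them was not tested.

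By limma, fitted over all 20365 tested genes, with calls made at an adjusted p (Benjamini-Hochberg) under 0.05 and at least a 2-fold change, 33 members fell in callus 3, 4 and 5 relative to somatic embryos and 5 rose. The 33 make up 15.5% of the members, beside 6.09% of all tested genes and 3.66% of those with the same floor. The 5 make up 2.35%, beside 7.30% and 4.95%. The median log2 fold change of the members was -0.24, against 0.14 for all tested genes, so the members lay 0.38 below the typical gene. With median-of-ratios scaling these medians were -0.40 and -0.01. In that scaling 37 members (17.4%) fell and 1 (0.469%) rose, beside 6.81% and 5.60% of all tested genes. Lower members then made up 97.4% of those called in place of 86.8%, and lower genes 54.9% of all genes called in place of 45.5%. Leaving out callus 3, 4 or 5 gave 21 (9.86%), 19 (8.92%) and 18 (8.45%) members that fell and 3 (1.41%) that rose in each case. Of all tested genes, 3.07% to 3.16% then fell and 4.89% to 5.14% rose. Without somatic embryo 3, 32 members (15.0%) fell and 4 (1.88%) rose, beside 5.64% and 6.96% of all tested genes. Without somatic embryo 4, 32 (15.0%) fell and 5 (2.35%) rose, beside 5.91% and 7.29%.

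**Figure D4:**
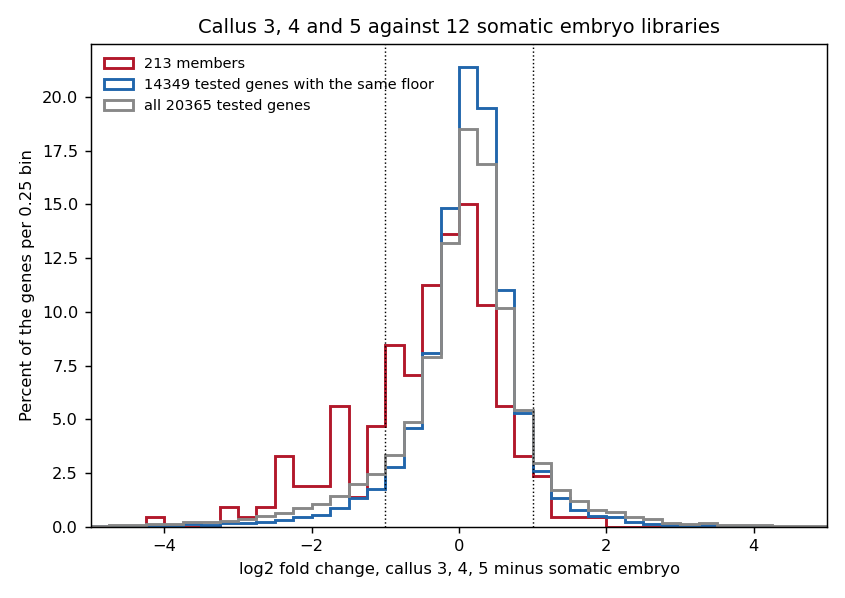
Distribution of the log2 fold change (callus 3, 4, 5 minus somatic embryo, horizontal) as percent of genes per bin of 0.25 (vertical), for the 213 members (red), the 14349 tested genes with the same floor (blue) and all 20365 tested genes (grey). Dotted lines mark a change of 1 in either direction. The red line is shifted to the left, with a median of -0.24 for the members, beside 0.16 for the genes with the same floor and 0.14 for all tested genes.

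The 33 members that fell had a median of 9.23 FPKM (mean over libraries) in callus 3, 4 and 5, against 49.7 FPKM in somatic embryos, with a median log2 fold change of -1.72. Among the embryo sets, 14 of them were highest in libraries 1, 4 and 12, 8 in 8, 9 and 10, 7 in 5, 6 and 7 and 4 in 2, 3 and 11. The median of their highest level in callus 1, 2 and 6 was 0.92 FPKM. That level lies below callus 3, 4 and 5 in every member by the choice of members.

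The largest falls were in Cm11G01272.gene and Cm07G00121.gene. Cm11G01272.gene had 42.4, 28.8 and 42.4 FPKM in callus 3, 4 and 5, and 63.5 to 2352 FPKM in somatic embryos with a median of 1272 FPKM. In callus 1, 2 and 6 it had 0.46, 0.07 and 0.12 FPKM. The embryo libraries themselves were split for this gene, with 86.4, 63.5 and 71.2 FPKM in libraries 8, 9 and 10 and 558 FPKM or more in the other 9. Callus 3, 4 and 5 lay below every embryo library (log2 fold change -4.14 ± 1.10 SE, limma adjusted p = 0.015), but with callus 3, 4 or 5 left out the adjusted p was 0.059 to 0.077.

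Cm07G00121.gene had 8.59, 6.84 and 8.17 FPKM in callus 3, 4 and 5, against 41.2 to 143 FPKM in somatic embryos with a median of 80.2 FPKM. In callus 1, 2 and 6 it had 0.86, 0.96 and 1.03 FPKM. The 3 kinds of library did not overlap in this gene. The log2 fold change between callus 3, 4 and 5 and somatic embryos was -3.24 ± 0.34 SE (limma adjusted p = 7.8e-06).

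Among the members called, the largest rises were in Cm07G02172.gene and Cm02G00301.gene. Cm07G02172.gene had 79.7, 76.1 and 78.9 FPKM in callus 3, 4 and 5, against 4.79 to 71.4 FPKM in somatic embryos with a median of 20.3 FPKM. It was listed at 0 in callus 1, 2 and 6. Its embryo levels were uneven, from 4.85 to 10.9 FPKM in libraries 8, 9 and 10 and 41.2 to 71.4 FPKM in 5, 6 and 7. The log2 fold change was 1.99 ± 0.68 SE (limma adjusted p = 0.049), and in 17 of 24 other settings the gene was not called, with adjusted p up to 0.15.

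Cm02G00301.gene had 48.3, 51.9 and 55.1 FPKM in callus 3, 4 and 5, against 10.3 to 33.4 FPKM in somatic embryos with a median of 19.2 FPKM. In callus 1, 2 and 6 it had 0.27, 0.14 and 0.08 FPKM. The callus libraries were thus its highest and its lowest, with all embryos between them (log2 fold change of callus 3, 4 and 5 over somatic embryos 1.41 ± 0.26 SE, limma adjusted p = 0.0014). The widest-gap genes did not pass the same test. Cm02G00349.gene had a log2 fold change of 0.49 ± 0.24 SE (limma adjusted p = 0.15) and Cm05G01810.gene one of -0.24 ± 0.27 SE (limma adjusted p = 0.55).

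**Figure D5:**
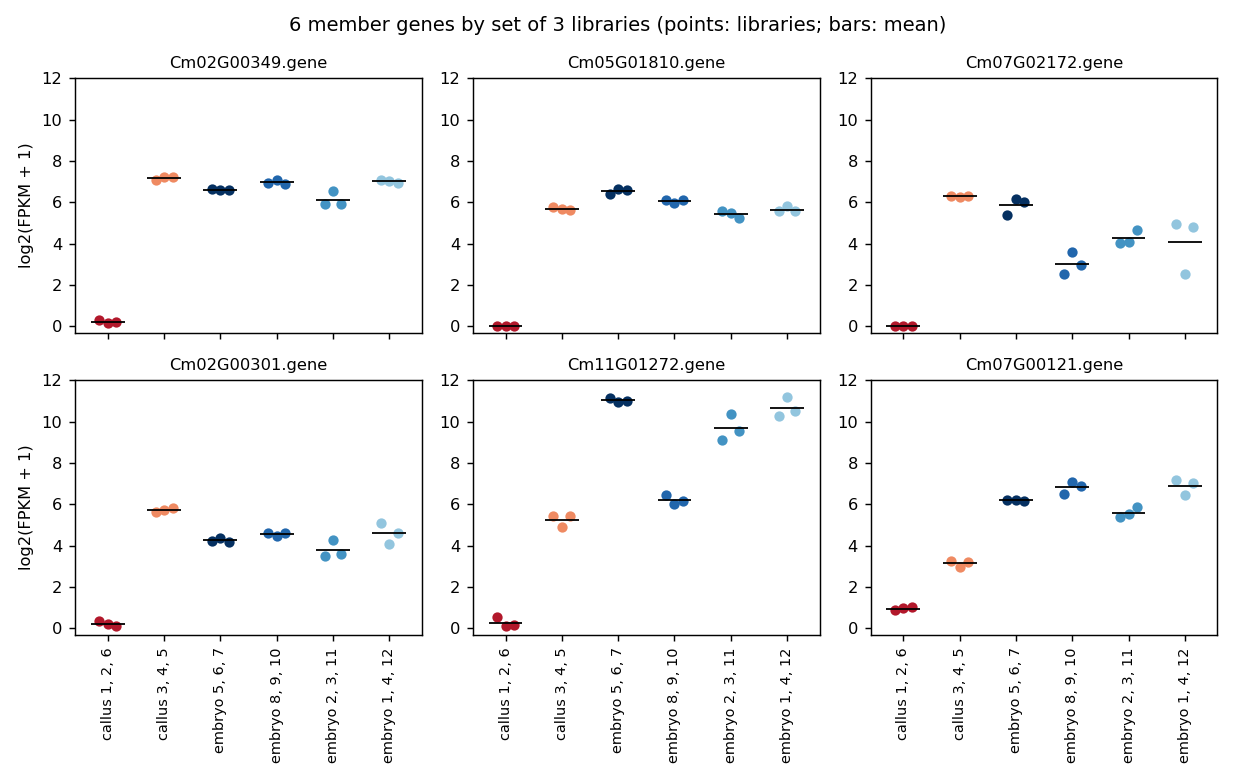
Levels of 6 members as log2(FPKM + 1) by set of 3 libraries, with callus in red and orange and somatic embryos in blue. Points are libraries and bars are set means. In the panels of Cm02G00349.gene and Cm05G01810.gene all 15 other libraries form a band far above callus 1, 2 and 6. In those of Cm11G01272.gene and Cm07G00121.gene callus 3, 4 and 5 lie below the embryo libraries.

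In the comparison of the labelled tissues with all 18 libraries, 178 members (83.6%) were lower in callus by limma, beside 11.3% of all tested genes. Callus 1, 2 and 6, on which the members were selected, are 3 of its 6 callus libraries, so nothing is read from that count. In 108 tested genes (0.530%) all 6 callus libraries lay at least 1.5 below every somatic embryo library, and 4 genes were in both lists, which is 1.88% of the members and 3.70% of the 108, where members make up 1.05% of all tested genes.

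By ID number, members had other members as close neighbours more often than tested genes at large did. In 127 members the next-numbered ID was a tested gene, and in 14 of these (11.0%) it was a member too. For all tested genes with a tested next number, that ID was a member in 0.932%. Another member lay within 5 numbers for 61 members (28.6%), and a member lay within 5 numbers for 5.14% of the tested genes outside the set. With steps of at most 5, the members formed 152 single genes, 22 pairs and 5 runs of 3 or more, the longest of 5 genes. No test was made of this closeness.

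Of the 14 pairs with consecutive numbers, 7 had both genes at or under 1 FPKM in callus 1, 2 and 6, and 4 had both listed at 0 there. In 5 pairs the typical levels in the other 15 libraries were within 2-fold of each other. Whether neighbouring IDs are copies that share reads is not known here. By the number after the letters of the ID, the share of tested genes that were members ran from 0.565% (11 of 1948 genes, number 05) to 2.03% (31 of 1530 genes, number 11) and 2.12% (6 of 283 genes, number 00). Members thus occurred under all 13 numbers.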

How the data were processed

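RNA of 12 somatic embryo and 6 callus libraries was sequenced from strand-specific libraries, per the labels' protocols. The authors deposited FPKM, rounded to 2 decimals, in a table of 213 sample columns; 18 columns were used, each with a name that begins 1 sample's title, and 195 were not used here. FastQC 0.11.9, Trimmomatic and STAR 2.7.10b are named in the submitters' processing notes; no quantifier, build or annotation is given in the sources used here. FPKM depends on the library total, so a few abundant genes can lower all others.

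The members and gene lists were chosen with earlier results of these data known. The gene and marker lists could not be matched to IDs and were not run. Values were taken as log2(FPKM + 1), and a fold change on that scale understates the change of low genes. Callus was compared with somatic embryo, with all libraries and without callus 1, 2 and 6, by limma 3.58.1 in R 4.3.3 (trend and robust settings, statmod 1.5.0) over 20365 genes; a call needed a Benjamini-Hochberg adjusted p under 0.05 and a log2 fold change of at least 1 in size. The fit was tested on simulated data. Those data were drawn independently for each library, without the sets of 3 close libraries seen here. "The same floor" means a lowest value of at least 1.5 (log2) in the 15 libraries, the least a member can have, without matching of levels. Genes named are the 2 members with the widest gap and, among called members, the 2 largest rises and falls. Depth is unknown, so no counting interval is given. Alternatives were other pseudocounts, scalings, filters and gaps, plain limma, a replicate block and each library left out. Tables were handled in Python 3.11.15 with pandas 2.3.3.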

Additional observations from a re-analysis of the deposited data

How the results depend on the processing

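The number of members, 213, was 471 with a pseudocount of 0.1 and 575 with 0.01, which widen gaps near 0. It was 406 with a gap of at least 1 and 122 with a gap of at least 2. The other scalings gave 212 to 237, with 205 to 210 of the 213 shared, and leaving out 1 library gave 213 to 236. In callus 3, 4 and 5 against somatic embryo, 2728 genes were called, 4499 with no fold threshold and 1628 to 2800 with 1 library left out. Members that fell numbered 33 (15.5%, beside 6.09% of all tested genes). With 1 library left out they numbered 18 (8.45%, beside 3.07%) to 34 (16.0%, beside 5.87%). Members that rose numbered 5 (2.35%, beside 7.30% of all tested genes). With no fold threshold 13 rose (6.10%, beside 14.3%), and with median-of-ratios scaling 1 rose (0.469%, beside 5.60%). With 1 library left out 3 to 7 rose. The 3 (1.41%, beside 4.89% to 5.14%) were without callus 3, 4 or 5. The 7 (3.29%, beside 7.45% to 7.52%) were without somatic embryo 5, 6 or 7. With all 18 libraries 4466 genes were called, 9435 with no fold threshold and 4015 to 4594 with 1 library left out. Members lower in callus numbered 178 (83.6%, beside 11.3% of all tested genes), and 132 to 199 with 1 library left out. The 132 (62.0%, beside 9.94% to 10.1%) were without callus 1, 2 or 6. The 199 (93.4%, beside 11.3% to 11.4%) were without callus 3 or 5. No pairing by label number was seen: deviations of same-numbered libraries correlated from -0.08 to 0.01, and 0 of 6 callus libraries correlated best with their own number. These deviations include the differences among the sets of 3 libraries, so a weak pairing could be missed. With the replicate block on numbers 1 to 6, 109 members (51.2%, beside 11.0% of all tested genes) were lower in callus. On those libraries without the block there were 114 (53.5%, beside 11.2%). On numbers 3 to 5, 9 members (4.23%, beside 8.73% of all tested genes) rose with the block and 9 (4.23%, beside 8.60%) without it. The median of the members relative to all genes, -0.38, kept its sign in the 7 other settings run for it. With FPKM alone, how far depth limits the values near 0 is unknown.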
